A study of Arabidopsis thaliana with 54 samples.

Results

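The 10 genes described here belong to the xyloglucan endotransglucosylase/hydrolase (XTH) family of Arabidopsis thaliana: XTH4 (AT2G06850), XTH15 (AT4G14130), XTH16 (AT3G23730), XTH18 (AT4G30280), XTH19 (AT4G30290), XTH22 (AT5G57560), XTR6 (AT4G25810, also called XTH23), XTH24 (AT4G30270), XTH25 (AT5G57550) and XTH33 (AT1G10550). They were taken by gene ID from a table of raw read counts with 36632 genes, and they were picked for their levels at 0 h, where plants with an earlier cold spell were set against both control groups. The 0 h differences between the conditions are therefore a description and were not tested. All 10 passed the filter on low counts, as did 20720 genes in all, and 24 of the 33 genes of the XTH family.

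Xyloglucan is a glucan with xylose side chains that coats and tethers cellulose in the primary wall of dicot plants. XTH enzymes cut a xyloglucan chain and join the cut end to another chain, or in some members to water, so that walls can be loosened or rebuilt while cells grow. XTH22 is widely known as TCH4, one of the touch genes, whose RNA rises within minutes of a mechanical stimulus and also responds to brassinosteroid, heat and cold.

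Whole rosettes of Col-0 were sampled in 18 groups of 3 libraries, each library from 1 of 3 independent experiments (Exp1 to Exp3) and made of 5 pooled samples. C28PLT plants were put at 4 °C for 3 days when 28 days old (priming), spent a lag of 7 days in warm long days, and were then put at 4 °C again (triggering). C35P plants, the developmental control, had their first cold at an age of 35 days, and C28P plants had theirs at 28 days. The libraries of each condition cover 6 times from 0 to 24 h of cold. The comparison asks whether the earlier cold spell changes levels before and during a later one. The priming and lag days of C28PLT together exceed the extra week of C35P, so a small difference in age remains between them. Warm plants stood under 200 µmol of light and cold plants under 90 µmol, with days of 16 h, and no warm plants were sampled beside the 2 to 24 h groups. Cold, dimmer light and, at 2 to 12 h, time of day therefore cannot be told apart. In pooled rosettes, fewer cells of a type and less RNA per cell cannot be told apart either.

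Total counts lay between 23408399 and 34452480 per library. The 6 leaf marker genes summed to 48500 to 107000 CPM (counts per 1000000 counts of the library, with TMM scaling). Root hair markers summed to at most 0.173 CPM, with 2 of 6 at 0 in every library, and flower markers to between 0.838 and 9.32 CPM. The C28P library of Exp1 at 0 h stood apart: the clock gene PRR5 had 77.2 CPM there, against 0.949 and 1.14 CPM in the other C28P libraries at 0 h.

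The genes are close relatives, and each carries the short conserved stretch with the catalytic glutamate of the family. The stretch is shown because it is the shared signature of the 10 genes. It is 27 bases of coding sequence (RefSeq, build TAIR10.1, coding strand), with capitals for bases that differ from XTH22:
XTH22: gacgagatagatttcgagtttttaggg
XTR6: gacgagatTgaCttTgagttCttGggA
XTH24: gaTgagatTgatttTgagttCttGggT
XTH18: gaTgagatTgatttcgagttCttaggA
XTH19: gaTgagatTgatttcgagtttttGggg
XTH25: gacgaAatCgatttcgagtttCtTggT
XTH15: gacgagatagaCttTgagtttCtaggT
XTH16: gacgagatagaCttTgagtttCtTggT
XTH4: gacgagatagaCttTgagttCCtTggA
XTH33: gacgagatagaCAtAgaAttGttGggT
XTH33 differed from XTH22 at 7 of the 27 bases and XTH19 at 3. Over the whole coding sequence the closest pair was XTH18 and XTH19 with 89.2% identity over 834 aligned bases. XTH22 and XTR6 shared 82.4% and XTH15 and XTH16 shared 81.7%, and the remaining pairs shared between 61.6% and 75.4%. How reads matching more than 1 gene were counted is not stated in the labels, so the split of reads between XTH18 and XTH19 is uncertain. Several members are neighbours: XTH24, XTH18 and XTH19 lie within 3 gene places of each other on chromosome 4, and XTH25 and XTH22 do so on chromosome 5.

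Before the second cold, XTH22 was low in primed plants and variable in the controls. At 0 h it had 22.2, 17.4 and 13.5 CPM in C28PLT (Exp1 to Exp3), against 1070, 314 and 18.7 CPM in C35P and 230, 749 and 152 CPM in C28P. Each primed library lay below each C28P library, while the lowest C35P library fell within the primed range. The fitted log2 difference was -4.72 to C35P and -4.41 to C28P.

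XTR6, the nearest relative of XTH22 among these genes, had 1.48, 0.78 and 1.58 CPM in C28PLT at 0 h, against 65.8, 6.04 and 2.29 CPM in C35P and 13.2, 36.5 and 6.14 CPM in C28P. Every primed library was below every control library. The log2 difference was -4.27 to C35P and -3.87 to C28P.

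XTH33, the member with the lowest coding identity to the others, had 0.348, 0.357 and 0.47 CPM in C28PLT at 0 h, against 38.5, 0.964 and 0.473 CPM in C35P and 9.84, 23 and 4.04 CPM in C28P. Again the primed libraries lay below all others, though the margin to the lowest C35P library was narrow. XTH18, a gene best known from roots, had 0.392, 1.1 and 0.726 CPM in C28PLT, against 51.2, 5.34 and 0.437 CPM in C35P and 14.7, 34.6 and 2.28 CPM in C28P. The primed libraries of XTH18 overlapped those of C35P and lay below those of C28P. Log2 differences to C35P were -5.07 for XTH33 and -4.64 for XTH18, and to C28P they were -4.97 for XTH33 and -4.51 for XTH18.

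The other 6 members differed less at 0 h. Their log2 differences ran from -2.06 (XTH25) to -0.23 (XTH4) against C35P and from -2.69 (XTH25) to -0.35 (XTH4) against C28P. XTH4, a gene known from secondary growth of stems and the most abundant member, had 423, 361 and 524 CPM in C28PLT, against 905, 251 and 380 CPM in C35P and 520, 651 and 494 CPM in C28P. XTH24, also known as MERI5 and first described in shoot meristems, had 118, 51.1 and 115 CPM in C28PLT, against 244, 95.6 and 88.5 CPM in C35P and 239, 299 and 113 CPM in C28P. Both genes overlapped between C28PLT and each control. XTH19 had 15.6, 21.7 and 33.7 CPM in C28PLT, against 74.4, 25.8 and 22.5 CPM in C35P and 60.4, 91.2 and 51.4 CPM in C28P. XTH25 was near the lower limit of detection, with 0.162 to 0.641 CPM in C28PLT, 0.51 to 3.07 CPM in C35P and 0.714 to 6.41 CPM in C28P.

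Across the 10 genes the median log2 difference at 0 h was -1.69 to C35P and -2.10 to C28P, beside medians of -0.01 and -0.02 over all genes tested, and all 10 values were below 0 in both comparisons. The primed libraries lay below the C35P libraries without overlap for 2 of 10 members (XTR6 and XTH33), where 3.03% of all genes tested did so. They lay below the C28P libraries for 6 of 10 (XTH18, XTH19, XTH22, XTR6, XTH25 and XTH33), where 5.11% of all genes did. The members were picked on these levels, so nothing is read from those shares. Between the controls, C35P against C28P, the median of the 10 log2 differences was 0.12.

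**Figure D1:**
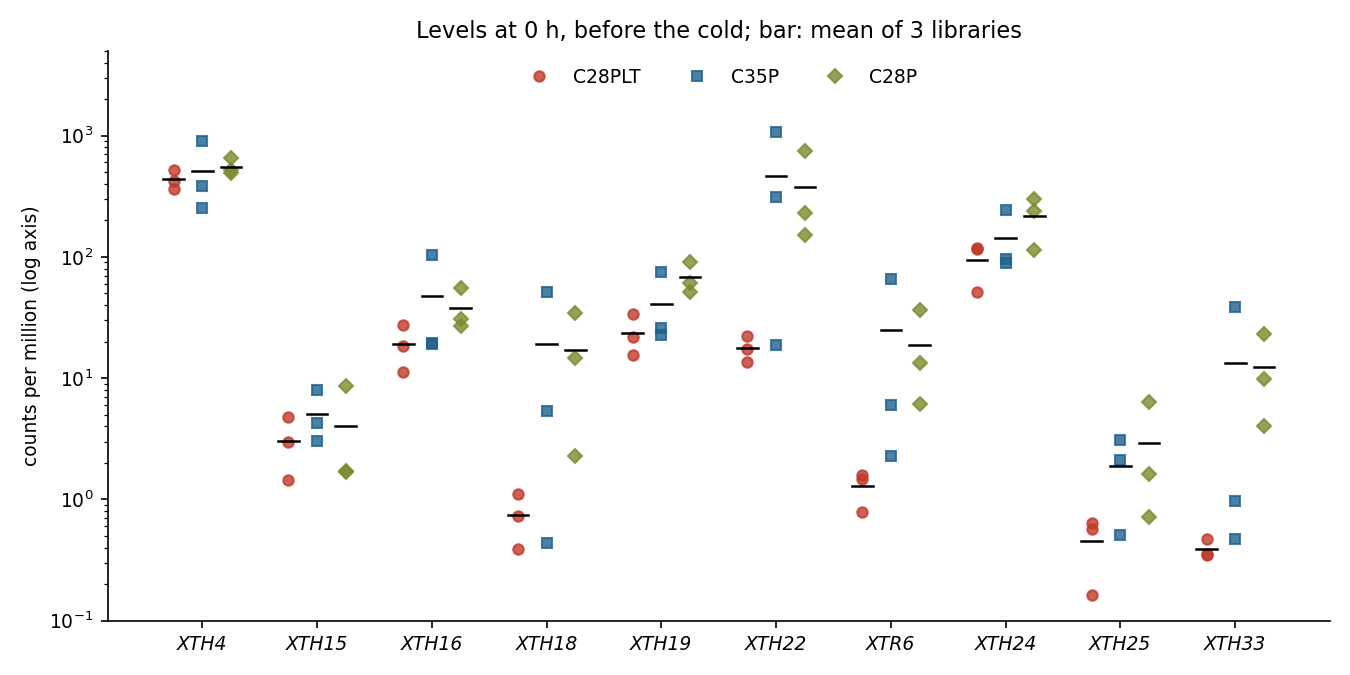
CPM (log axis) of the 10 genes at 0 h in each library, C28PLT left of C35P and C28P, with a bar at the mean of 3 libraries. The primed libraries of XTR6 sit between 0.78 and 1.58 CPM, below each control library, while those of XTH4 overlap with both controls.

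The spread among the controls was shared by the genes. Exp1 was the highest of the 3 C35P libraries for 10 of 10 members and Exp2 the highest of the 3 C28P libraries for 10 of 10. In C28PLT the highest library was Exp1 for 2 genes, Exp2 for 3 and Exp3 for 5. How many of all genes share these orders was not counted, and whether they are particular to the members was not tested. The TMM scaling factors at 0 h (Exp1 to Exp3) were 0.7855, 1.096 and 0.937 in C35P and 0.9839, 0.9871 and 0.7478 in C28P. In C28PLT they were 0.9815, 1.046 and 0.8475. Without the C35P library of Exp1, the log2 difference of C28PLT to C35P was -3.20 for XTH22, -1.69 for XTR6, -1.92 for XTH18 and -0.87 for XTH33. For XTH4 it then was 0.48, for XTH24 0.06 and for XTH16 0.00. Without the C28P library of Exp2, the difference to C28P was -3.43 for XTH22, -2.93 for XTR6, -3.49 for XTH18, -4.14 for XTH33 and 0.85 for XTH15. Without the C28P library of Exp1 that stood apart, it was -4.67 for XTH22 and -4.07 for XTR6. Flower markers summed to 4.06 to 8.05 CPM at 0 h in C28PLT, 1.62 to 6.23 CPM in C35P and 1.28 to 6.37 CPM in C28P, and their part in the 0 h levels was not tested.

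After 2 h of cold, XTH22 levels of primed plants lay inside the C35P range. At 2 h, XTH22 had 323, 370 and 316 CPM in C28PLT, against 211, 401 and 431 CPM in C35P and 219, 297 and 205 CPM in C28P. The C28PLT libraries lay above each C28P library. Against its own 0 h level, XTH22 rose in C28PLT, with a log2 change of 4.25 (SE 0.921, edgeR adjusted p = 0.004). This and the following changes from 0 h share the 0 h libraries by which the genes were picked. A gene is called changed at an adjusted p under 0.05 in edgeR's quasi-likelihood test, adjusted over all genes tested by the Benjamini-Hochberg method.

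XTH33 and XTH18 rose from near absence in C28PLT. XTH33 had 34.9, 53 and 7.52 CPM in C28PLT at 2 h, a log2 change of 6.33 from 0 h (SE 1.1, edgeR adjusted p = 3.21e-04). XTH18 had 14.5, 36 and 13.4 CPM in C28PLT at 2 h, a log2 change of 4.81 (SE 1, edgeR adjusted p = 0.00272). Each 2 h library was above each 0 h library for both genes. XTH24 had 359, 337 and 267 CPM in C28PLT at 2 h and rose by 1.76 on the log2 scale (edgeR adjusted p = 0.0327). Leaving out 1 library ended that call in 5 of 6 fits (all but the one without Exp3 at 2 h), with an edgeR adjusted p up to 0.211. XTR6 had 7.52, 7.34 and 3.59 CPM in C28PLT at 2 h, all above its 0 h libraries, and its change of 2.27 had an edgeR adjusted p of 0.0774.

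In C28PLT, 4 of 10 members were higher at 2 h than at 0 h, where 2.22% of all genes tested were called higher. DESeq2 called 5 members, the additional one being XTR6. In the first cold at 2 h, edgeR called 0 members in C35P, where 1.96% of all genes were called, and 0 in C28P, where 0.391% were. At an unadjusted p under 0.05 there were 4 members in C35P, where 9.44% of all genes were, and 2 in C28P, where 12.1% were. DESeq2 called 1 (XTH24, higher) in C35P and 0 in C28P. The median log2 change of the 10 genes from 0 to 2 h was 1.54 in C28PLT, 0.08 in C35P and 0.13 in C28P, beside 0.00, 0.00 and 0.03 over all genes in the same order. The members were picked on their 0 h levels, so nothing is read from these counts and medians.

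**Figure D2:**
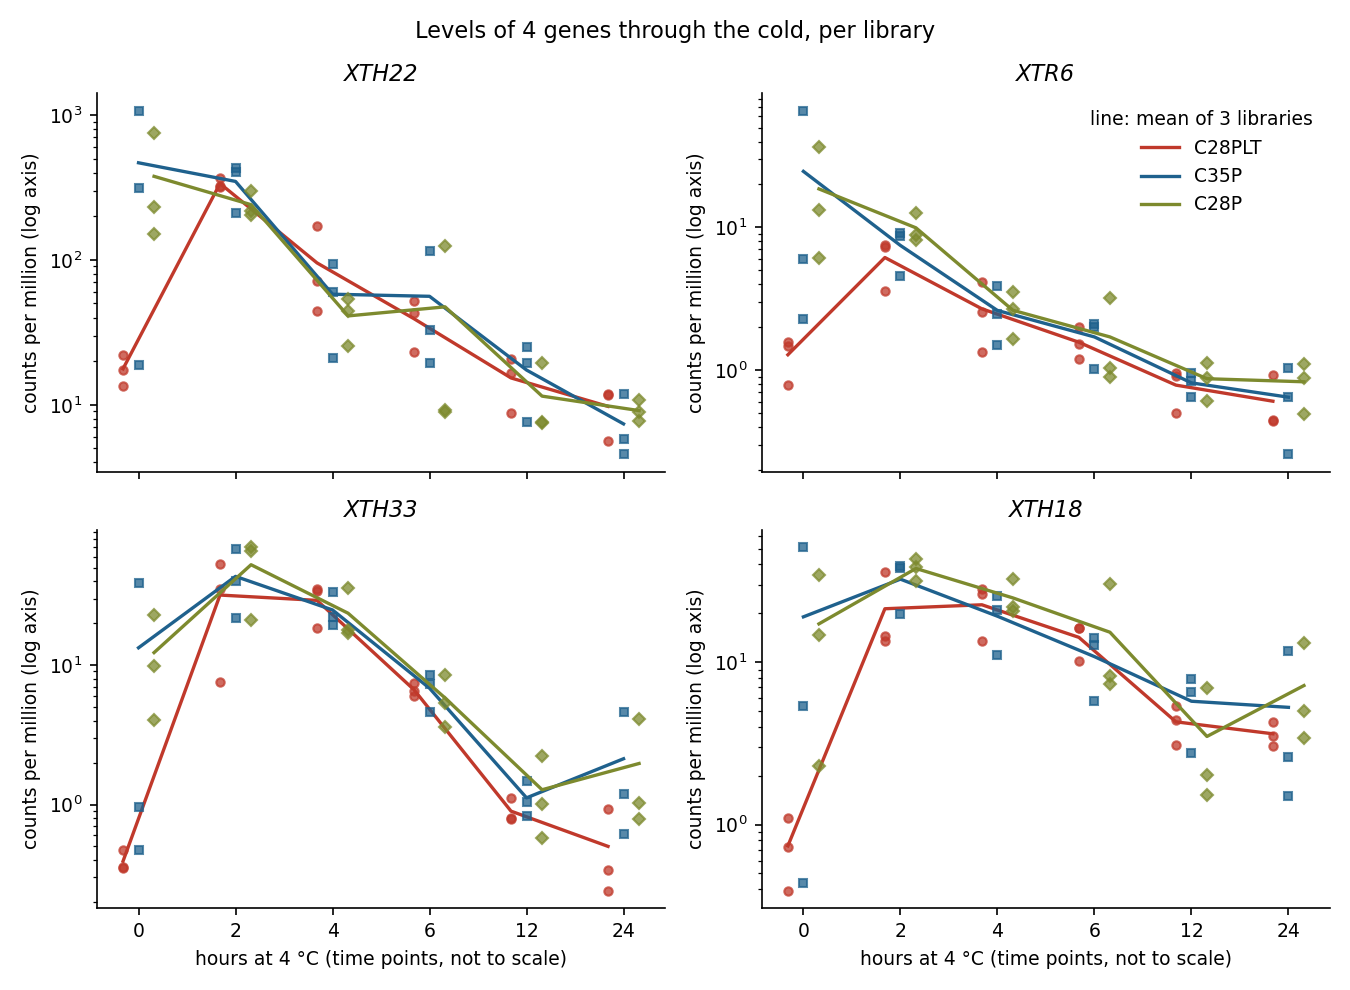
CPM (log axis) of XTH22, XTR6, XTH33 and XTH18 by hours at 4 °C (time points, not to scale), with a point per library and a line through the mean of 3 libraries, for C28PLT, C35P and C28P. The C28PLT line starts lowest at 0 h in each panel and lies near the control lines from 2 to 12 h.

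The highest mean level of XTH22 was 336 ± 29.3 CPM at 2 h in C28PLT, 468 ± 543 CPM at 0 h in C35P and 377 ± 325 CPM at 0 h in C28P (SD, n = 3 each). Over all 18 groups the order of XTH22 means began with C35P at 0 h, C28P at 0 h, C35P at 2 h (348 ± 119 CPM) and C28PLT at 2 h, which all lay within 1 SD of a neighbour. The lowest mean was 7.38 ± 3.88 CPM in C35P at 24 h. In C28PLT, 7 of 10 members had their highest mean at 2 h and 3 at 4 h. In C35P, 5 members were highest at 0 h, 4 at 2 h and 1 at 4 h, and in C28P 3 were highest at 0 h, 6 at 2 h and 1 at 4 h. XTH24 averaged 513 ± 102 CPM at 4 h in C28PLT, 458 ± 1.18 CPM in C35P and 488 ± 95 CPM in C28P (SD, n = 3 each), its highest mean in each condition.

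At 4 and 6 h, XTH18, XTH24 and XTH33 were still called above their 0 h level in C28PLT. At 4 h, XTH33 had 34.9, 34 and 18.5 CPM (log2 change 6.21, edgeR adjusted p = 6.25e-05) and XTH18 had 13.4, 28 and 26.2 CPM (log2 change 4.89, edgeR adjusted p = 4.92e-04). These 3 members were the ones called at 4 h, where 7.51% of all genes were called higher, and again 3 at 6 h, where 9.7% were. XTH22 had 71.2, 44.6 and 170 CPM at 4 h in C28PLT, 20.9, 59.7 and 93.2 CPM in C35P and 25.3, 53.6 and 44.2 CPM in C28P, each below every 2 h library of its condition. In C28PLT the 4 h values of XTH22 lay above every 0 h library (at most 22.2 CPM). So did those at 6 h (42.9, 23.1 and 51.7 CPM), though XTH22 was called at neither time.

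In the controls, XTH22 and XTR6 were the members called below their 0 h level at 4 h. The log2 change of XTH22 was -3.01 in C35P (edgeR adjusted p = 0.0174) and -3.20 in C28P (edgeR adjusted p = 0.0158). XTR6 changed by -3.23 in C35P (edgeR adjusted p = 0.00136) and by -2.83 in C28P (edgeR adjusted p = 0.00696). At 4 h, 4.61% of all genes in C35P and 3.88% in C28P were called lower. XTH24 was called higher in C35P (1.68, edgeR adjusted p = 0.017), where 5.65% of all genes were, a call that ended without the 0 h library of Exp2 (1.46) or of Exp3 (1.43).

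All 4 of the lower calls at 4 h ended when a single 0 h library was left out. Without Exp1 at 0 h, XTH22 in C35P was at -1.49 (edgeR adjusted p = 0.389) and XTR6 at -0.65 (edgeR adjusted p = 0.668). Without Exp2 at 0 h, XTH22 in C28P was at -2.22 (edgeR adjusted p = 0.159) and XTR6 at -1.89 (edgeR adjusted p = 0.132). The XTH22 calls also ended without Exp1 at 4 h in either control (-2.61 in C35P and -2.95 in C28P), without Exp2 at 4 h in C35P (-3.03) and without Exp3 at 4 h in C28P (-3.27). That of XTR6 in C28P ended without Exp1 at 4 h (-2.59).

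Later in the first cold, more members lay below 0 h. At 6 h, 4 were called lower in C35P, where 8.57% of all genes were, and 5 in C28P, where 9.71% were. At 12 h it was 6 in C35P, where 12.5% of all genes were, and 6 in C28P, where 10.5% were. Without the C35P library of Exp1 at 0 h, all 4 of the 6 h calls in C35P ended, and 3 of the 6 at 12 h (XTH16, XTH19 and XTH33). Without the C28P library of Exp2 at 0 h, 4 of the 5 calls at 6 h in C28P ended (all but XTR6), and 3 of the 6 at 12 h (XTH16, XTH25 and XTH33). The same 3 calls at 12 h ended without the C28P library of Exp1 at 12 h, and at 6 h those of XTH16 and XTH22 in C28P ended without Exp1 or Exp3 at 6 h. In C35P at 6 h, XTH15 also ended without Exp1 or Exp2 at 6 h and XTH22 without Exp2 or Exp3 at 6 h, and XTH19 at 12 h without Exp1 at 12 h. In C28PLT at 12 h, XTH15 (-2.20) and XTH16 (-1.40) were lower, where 12.5% of all genes were, and XTH18 (2.50) was higher, where 14.1% were. The XTH18 call ended in each of 6 fits without 1 library, and those of XTH15 and XTH16 in 4 of 6 each.

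The changes from 2 h on share no library with the 0 h levels. From 2 to 24 h nearly all members fell in all 3 conditions. XTH22 had 11.7, 5.64 and 11.9 CPM at 24 h in C28PLT, against 323, 370 and 316 CPM at 2 h. In C35P it had 11.8, 5.79 and 4.54 CPM at 24 h, against 211, 401 and 431 CPM at 2 h. In C28P it had 10.8, 8.88 and 7.67 CPM at 24 h, against 219, 297 and 205 CPM at 2 h. The libraries of 24 h and 2 h lay far apart in each condition.

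On the log2 scale XTH22 changed by -5.11 in C28PLT (SE 0.962, edgeR adjusted p = 1.12e-04), by -5.56 in C35P (SE 0.982, edgeR adjusted p = 6.26e-05) and by -4.72 in C28P (SE 0.943, edgeR adjusted p = 2.87e-04). XTR6 had 0.924, 0.449 and 0.441 CPM at 24 h in C28PLT, 1.03, 0.65 and 0.256 CPM in C35P and 1.11, 0.489 and 0.883 CPM in C28P, each below the 2 h libraries of its condition. XTR6 changed by -3.36 in C28PLT (edgeR adjusted p = 0.001), by -3.51 in C35P (edgeR adjusted p = 6.79e-04) and by -3.59 in C28P (edgeR adjusted p = 4.21e-04).

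XTH33 had 0.924, 0.337 and 0.241 CPM at 24 h in C28PLT, 4.59, 0.619 and 1.18 CPM in C35P and 4.09, 0.787 and 1.03 CPM in C28P. From 2 h it changed by -6.02 in C28PLT (edgeR adjusted p = 4.99e-05), by -4.33 in C35P (edgeR adjusted p = 9.33e-04) and by -4.74 in C28P (edgeR adjusted p = 3.60e-04). In both controls the Exp1 library was the highest at 24 h for this gene, and without it the change was -5.58 in C35P and -5.85 in C28P.

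XTH19, the near copy of XTH18, had 30.1, 11.2 and 10.8 CPM at 24 h in C28PLT, against 25.1, 67.4 and 39.7 CPM at 2 h. These libraries overlapped, and its change of -1.34 had an edgeR adjusted p of 0.069. XTH19 changed by -3.30 in C35P (edgeR adjusted p = 6.20e-05) and by -3.16 in C28P (edgeR adjusted p = 9.05e-05). XTH18 changed by -2.56 in C28PLT, -2.61 in C35P and -2.40 in C28P (edgeR adjusted p = 0.0304, 0.0291 and 0.0394), and leaving out 1 library ended each of these calls in 4 of 6 fits.

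Counted over the 10 genes, 24 h was lower than 2 h for 9 in C28PLT, where 10.3% of all genes tested were called lower. It was lower for 9 in C35P, where 9.31% were, and for 10 in C28P, where 11.6% were. The member not called was XTH19 in C28PLT, where the count with the replicate block was 10, and XTH25 in C35P. XTH25 had 2, 0 and 22 reads at 24 h in C35P (Exp1 to Exp3), against 28, 39 and 12 at 2 h. Its calls in C28PLT and C28P ended in 3 and 4 of 6 fits without 1 library. Without Exp2 the number of members called in C28PLT was 3, and without Exp3 the number in C28P was 6. Shares of all genes called in these fits are not given, so whether the losses are particular to the members cannot be told. Median changes were -2.64 in C28PLT, -2.81 in C35P and -3.11 in C28P, beside -0.01, 0.03 and -0.06 over all genes. XTH4 had the smallest change among the called members in each condition (-1.39 in C28PLT, -1.50 in C35P and -1.55 in C28P).

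**Figure D3:**
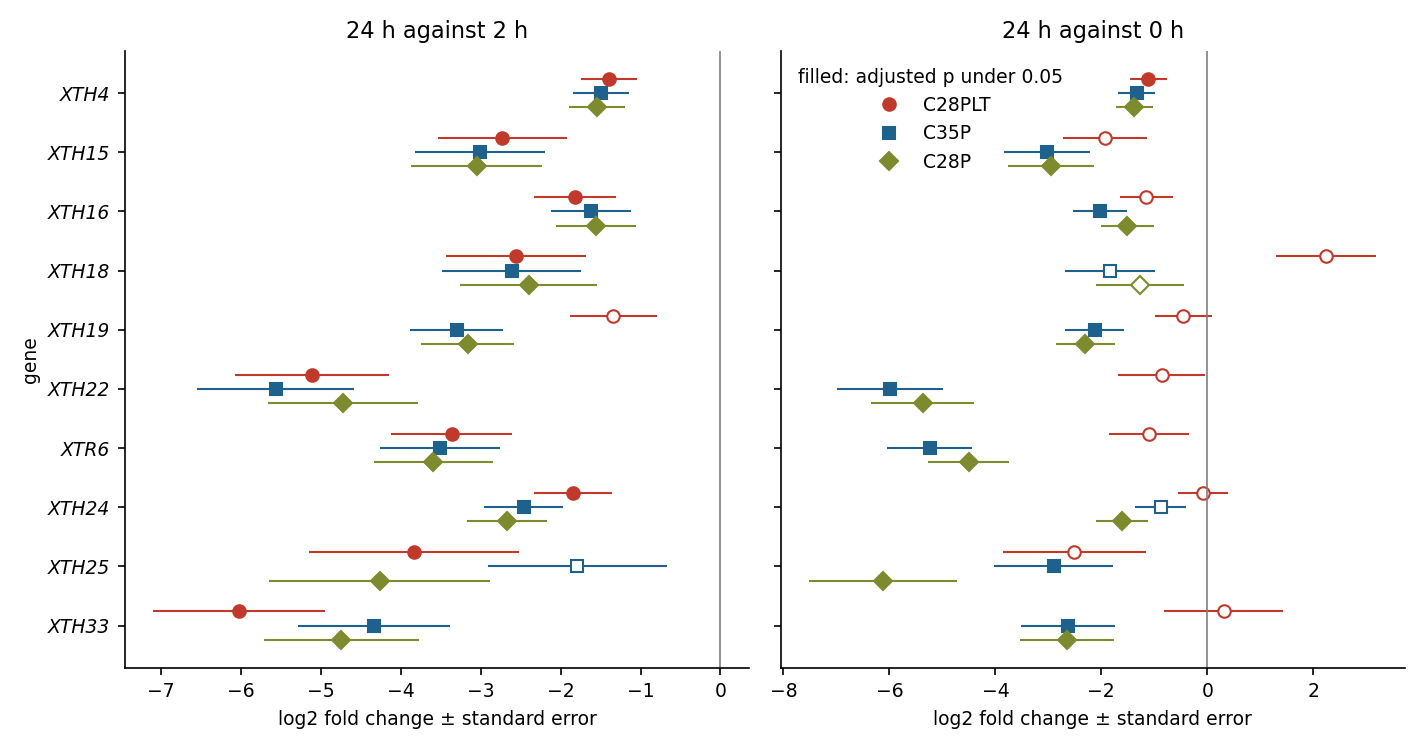
Log2 fold change ± standard error of each gene at 24 h against 2 h (left) and against 0 h (right) for C28PLT, C35P and C28P, with filled symbols for an edgeR adjusted p under 0.05. On the left 28 of 30 symbols are filled and below 0, while on the right the C28PLT symbols of XTH22 and XTR6 lie nearer to 0 than those of the controls. The changes on the right rest on the 0 h levels that picked the genes, so nothing is read from that difference.

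From 2 to 4 h, edgeR called 0 members in C28PLT, C35P and C28P, where 0.927%, 0.507% and 1.15% of all genes were called. At an unadjusted p under 0.05 there were 2, 3 and 2 members, beside 9.2%, 7.72% and 11.5% of all genes in the same order, and DESeq2 called 0 in each. From 2 to 6 h, 2 members were lower in C28PLT (XTH16 and XTH22), where 3.14% of all genes were, 1 in C35P (XTH19), where 2.84% were, and 5 in C28P, where 4.62% were. All 5 of the C28P calls ended without the C28P library of Exp1 at 6 h, and all 5 without that of Exp3, while 3 of them (XTH16, XTH19 and XTH33) ended without Exp1 at 2 h. The XTH19 call in C35P ended in 3 of 6 fits without 1 library (Exp1 at 2 h, Exp2 or Exp3 at 6 h). In C28PLT, XTH16 ended without Exp2 at 2 h or without Exp1 or Exp3 at 6 h, and XTH22 without Exp1 or Exp2 at 6 h. From 2 to 12 h, 7 members were lower in C28PLT, where 8.68% of all genes were, 7 in C35P, where 7.98% were, and 8 in C28P, where 9.4% were. Leaving out 1 library ended the calls of XTH24 in C28PLT and XTH18 in C35P in 5 of 6 fits each. That of XTH4 in C28P ended in 4 of 6, and the remaining calls ended in 2 at most.

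XTH16, a gene known from shade-induced growth, had 9.46, 9.26 and 6.9 CPM at 24 h in C28PLT, against 21.7, 54.6 and 14.5 CPM at 2 h. Its call there (-1.82, edgeR adjusted p = 0.00727) ended without the C28PLT library of Exp2 at 2 h (-1.10, edgeR adjusted p = 0.123). XTH15, its nearest relative and also called XTR7, had 0.616, 0.561 and 1.24 CPM at 24 h in C28PLT, against 4.32, 8.79 and 2.89 CPM at 2 h. The XTH15 libraries did not overlap, with a change of -2.73 (edgeR adjusted p = 0.0113), and the call ended in 3 of 6 fits without 1 library (edgeR adjusted p up to 0.0646).

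The changes from 0 to 24 h rest on the 0 h levels that picked the genes. Nothing is therefore read from how these changes or their calls differ between primed plants and controls. In C28PLT, XTH22 changed by -0.86 (SE 0.824, edgeR adjusted p = 0.48), and each 24 h library (11.7, 5.64 and 11.9 CPM) lay below each 0 h library (22.2, 17.4 and 13.5 CPM). XTH22 changed by -5.98 in C35P (SE 1, edgeR adjusted p = 1.59e-05) and by -5.37 in C28P (SE 0.972, edgeR adjusted p = 5.75e-05). For XTR6 the change was -1.09 in C28PLT (edgeR adjusted p = 0.307), -5.24 in C35P (edgeR adjusted p = 3.54e-06) and -4.50 in C28P (edgeR adjusted p = 2.49e-05).

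In C28PLT, 1 of 10 members was called lower at 24 h than at 0 h (XTH4, -1.11, edgeR adjusted p = 0.0143), where 11.3% of all genes were. In C35P it was 8 of 10 (all but XTH18 and XTH24), where 14% of all genes were, and in C28P 9 of 10 (all but XTH18), where 15.3% were. With the replicate block, the C28PLT count was 3 (XTH4 and XTH16 lower, XTH18 higher), and DESeq2 also gave 3 (XTH4 and XTH15 lower, XTH18 higher). XTH18 had 4.27, 3.06 and 3.53 CPM at 24 h in C28PLT, all above its 0 h libraries, with a log2 change of 2.25 (edgeR adjusted p = 0.0729). Whether the changes from 0 h differ between the conditions was not tested, since they rest on the levels that picked the genes.

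Without the C35P library of Exp1 at 0 h, the 24 h count in C35P was 3, with XTH22 at -4.49 and XTR6 at -2.68, and XTH33 turned to 1.54 (edgeR adjusted p = 0.185), against -2.63 with all libraries. Without the C28P library of Exp2 at 0 h, the count in C28P was 5, with XTH22 at -4.39 and XTR6 at -3.55. Without the C28P library of Exp1 at 0 h, which stood apart, the count was 9, with XTH22 at -5.63. In C28PLT the call of XTH4 ended without Exp3 at 0 h (-0.98) or without Exp2 at 24 h (-0.82), and without Exp3 at 24 h the count was 2.

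Between primed plants and controls, no difference was called once the cold had begun. Over 5 times and 10 genes, edgeR called 0 of 50 differences between C28PLT and C35P, 0 of 50 between C28PLT and C28P, and 0 of 50 between C35P and C28P. It called 0% of all genes tested in each of these comparisons, so the members do not stand apart from the table in this. DESeq2 called 0 of 50 in each. At an unadjusted p under 0.05 there were 1 of 50 between C28PLT and C35P (XTH33 at 24 h), 4 of 50 between C28PLT and C28P (XTH19 at 2 h, XTH15 at 6 and 12 h, XTH33 at 24 h) and 0 of 50 between C35P and C28P. Over all genes the share at that threshold lay between 0.55% and 3.23% over the 5 times for C28PLT against C35P, between 4.24% and 12.8% for C28PLT against C28P, and between 1.06% and 2.55% for C35P against C28P. The members' 2% and 8% lie within these ranges, so nothing is read from the named genes.

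The intervals show what sizes remain possible. For XTH22, the log2 difference of C28PLT to C35P was -0.05 at 2 h (95% interval -1.68 to 1.58), 0.71 at 4 h (-0.93 to 2.36) and 0.40 at 24 h (-1.27 to 2.07). To C28P it was 0.49 at 2 h (-1.15 to 2.12). For XTR6 it was -0.28 to C35P (-1.61 to 1.05) and -0.69 to C28P at 2 h (-2.03 to 0.64). XTH4, with the narrowest of these intervals, differed from C35P by -0.13 at 2 h (-0.82 to 0.56) and by -0.01 at 24 h (-0.71 to 0.68). For XTH33 at 24 h it was -2.13 to C35P (-4.13 to -0.13), with an edgeR adjusted p of 0.818. A missed threshold at this width does not show equal levels.

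**Figure D4:**
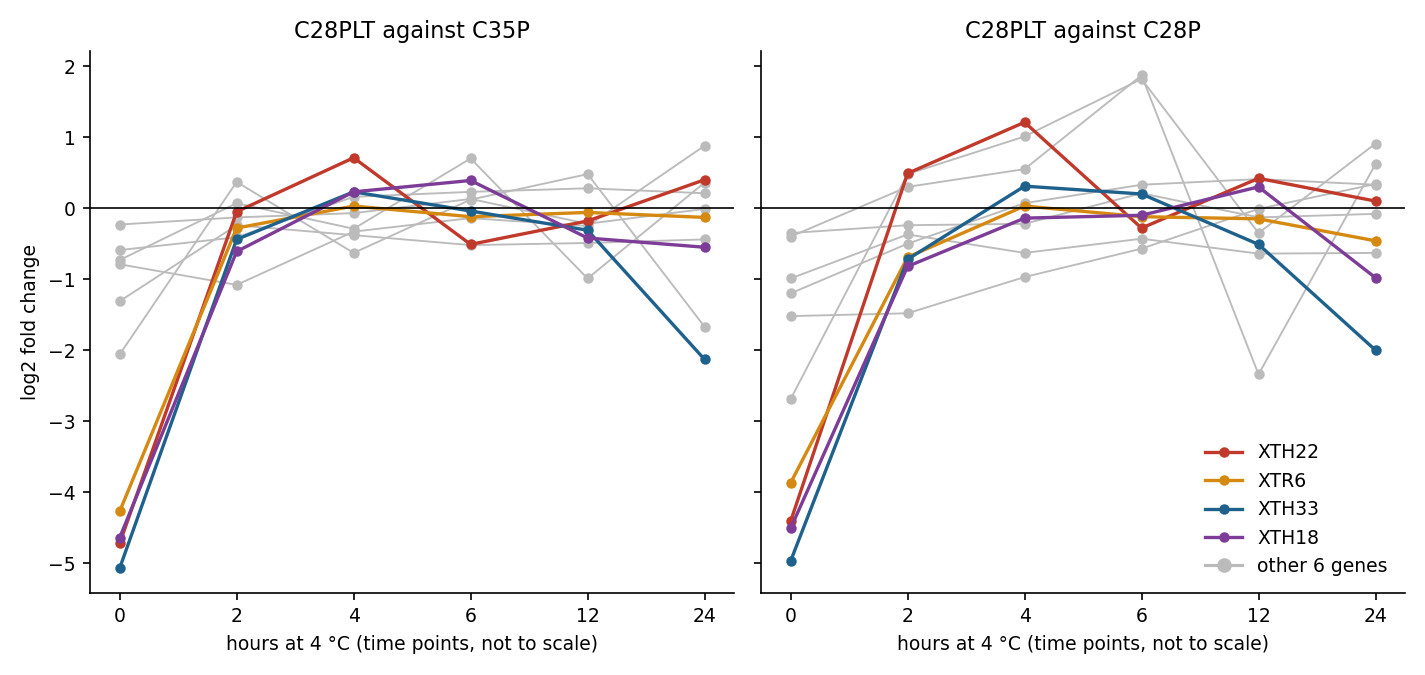
Log2 fold change of C28PLT against C35P (left) and against C28P (right) by hours at 4 °C, with a line per gene. The lines of XTH22, XTR6, XTH33 and XTH18 start between -5.07 and -3.87 at 0 h and lie nearer to 0 from 2 h on, with XTH33 at -2.13 and -2.00 at 24 h.

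The change from 2 to 24 h was also compared between conditions. It differed between C28PLT and C35P by 0.45 for XTH22 (95% interval -1.89 to 2.78), 0.15 for XTR6 (-1.91 to 2.22) and 1.96 for XTH19 (0.41 to 3.51). Between C28PLT and C28P the differences were -0.39 for XTH22 (-2.72 to 1.94), 0.23 for XTR6 (-1.83 to 2.29) and 1.82 for XTH19 (0.27 to 3.36). The edgeR adjusted p of XTH19 was 1 against C35P and 1 against C28P. Of the 10 members, edgeR called 0 in either comparison, as it did for 0% of all genes. DESeq2 called 0 members, and 1 member (XTH19) had an unadjusted p under 0.05 in each, as did 1.02% of all genes against C35P and 1.58% against C28P.

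Per kilobase of transcript, which allows genes to be compared, XTH4 was the highest member at 0 h in C28PLT with a level of 282 CPM per kb. It was followed by XTH24 (78.2 CPM per kb), XTH19 (17.7), XTH16 (15.6) and XTH22 (11.2). In C35P, XTH4 (331 CPM per kb) and XTH22 (294) were the highest, and in C28P these were again XTH4 (359) and XTH22 (237). At 2 h the order of the highest genes was XTH4, XTH24, XTH22 in each condition, and XTH22 had a level of 212 CPM per kb in C28PLT, 219 in C35P and 151 in C28P.

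Over the 18 group means, Pearson's r of log2 CPM between a pair of members had a median of 0.773 over 45 pairs, from 0.36 to 0.963. The highest value was between XTH22 and XTR6. Group means share libraries and scaling across genes, so these values are a description. The genes most like XTH22 over the 18 means were LGT8 (r = 0.988), PHI-1 (0.987), PGSIP7 (0.985), AT2G41640 (0.979) and AT1G72940 (0.975). Those most like XTR6 were BME3 (r = 0.973), XTH22 itself (0.963), AT4G25830 (0.957), EXO (0.953) and PHI-1 (0.952). PHI-1 averaged 8.55 CPM at 0 h in C28PLT, 634 CPM in C35P and 450 CPM in C28P, and 435 CPM at 2 h in C28PLT. EXO, known from work on brassinosteroid-promoted growth, averaged 42 CPM at 0 h in C28PLT, 469 CPM in C35P and 408 CPM in C28P. The 18 means by which these genes were found include the 0 h groups, so their 0 h levels are no separate finding.

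The promoters of XTH22, XTR6, XTH18 and XTH33 were read because these 4 genes had the largest 0 h differences. The 250 bases before the annotated start are shown (RefSeq, build TAIR10.1, coding strand of each gene), with matches to the searched motifs in capitals:
XTH22 promoter: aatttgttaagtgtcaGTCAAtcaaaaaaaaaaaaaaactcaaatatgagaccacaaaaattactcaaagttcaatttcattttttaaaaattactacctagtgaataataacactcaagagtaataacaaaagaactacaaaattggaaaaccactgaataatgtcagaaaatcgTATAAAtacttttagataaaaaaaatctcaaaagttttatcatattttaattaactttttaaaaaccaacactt
XTR6 promoter: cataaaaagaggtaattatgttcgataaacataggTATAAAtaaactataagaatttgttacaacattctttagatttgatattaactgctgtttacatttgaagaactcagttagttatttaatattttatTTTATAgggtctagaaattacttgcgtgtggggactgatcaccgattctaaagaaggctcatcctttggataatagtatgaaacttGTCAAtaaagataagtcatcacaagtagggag
XTH18 promoter: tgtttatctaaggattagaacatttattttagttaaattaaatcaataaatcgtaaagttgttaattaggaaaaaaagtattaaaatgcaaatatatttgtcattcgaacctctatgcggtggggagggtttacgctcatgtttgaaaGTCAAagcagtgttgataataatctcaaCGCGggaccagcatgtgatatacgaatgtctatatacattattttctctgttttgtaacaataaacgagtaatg
XTH33 promoter: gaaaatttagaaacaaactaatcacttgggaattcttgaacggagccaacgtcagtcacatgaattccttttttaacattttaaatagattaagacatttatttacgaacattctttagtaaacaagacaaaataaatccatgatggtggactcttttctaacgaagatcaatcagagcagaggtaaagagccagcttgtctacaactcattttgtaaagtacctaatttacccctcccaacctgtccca
They lie at chr5:23308681-23308930 (minus strand) for XTH22, chr4:13128144-13128393 (plus strand) for XTR6, chr4:14827212-14827461 (minus strand) for XTH18 and chr1:3481042-3481291 (minus strand) for XTH33. The genes themselves span chr5:23307006-23308680 with 2 exons (XTH22), chr4:13128394-13129927 with 3 exons (XTR6), chr4:14825757-14827211 with 3 exons (XTH18) and chr1:3479066-3481041 with 4 exons (XTH33).

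Both strands were searched in a window of 300 bases, from 250 before to 50 after the start. The W-box core TTGAC was found in 6 of 10 members and in 49.6% of 36630 promoters, and the TATA box TATAAA in 5 of 10 and in 48.8%. The CGCG core known from binding of CAMTA factors was found in XTH18 and in 13.2% of promoters, and the evening element core AATATCT in XTH24 and in 10.9%. The CCGAC core of the element that CBF factors bind was found in 0 of 10 members and in 15.3% of promoters, and the G-box CACGTG in 0 of 10 and in 6.58%. In XTH22 the W-box core lay at -234 to -230 and a TATA box at -74 to -69, counted from the annotated start. In XTR6 a W-box core lay at -32 to -28, and the window of XTH33 held none of the motifs. None of the motifs overlapped another in these 4 windows, and a match is a run of letters, not a site shown to be bound.

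Of the other 23 XTH genes, 14 were tested and 9 were not, none of which passed 0.341 CPM in any library. At 24 h against 0 h, 2 of the 14 were higher and 2 lower in C28PLT, 1 higher and 5 lower in C35P, and 1 higher and 4 lower in C28P. Over all genes, 14.6% were called higher and 11.3% lower in C28PLT, 14.7% higher and 14% lower in C35P, and 13.9% higher and 15.3% lower in C28P. XTH20 had 3.04, 2.22 and 1.4 CPM at 24 h in C28PLT, 1.81, 2.1 and 1.06 CPM in C35P and 2.72, 1.41 and 1.57 CPM in C28P. Its 0 h libraries had at most 0.299 CPM, and it was called higher in C28PLT, C35P and C28P (edgeR adjusted p = 0.00428, 0.00103 and 0.00207).

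XTH7 had 60.4, 28.5 and 38.9 CPM at 24 h in C28PLT, against 276, 244 and 323 CPM at 0 h, and its log2 change was -2.72 (edgeR adjusted p = 3.18e-05). It changed by -3.02 in C35P (edgeR adjusted p = 8.44e-06) and by -2.85 in C28P (edgeR adjusted p = 2.14e-05). XTH6 changed by -1.77 in C28PLT (edgeR adjusted p = 1.76e-04), by -1.32 in C35P (edgeR adjusted p = 0.00375) and by -1.50 in C28P (edgeR adjusted p = 0.00114). XTH28 was higher by 0.70 in C28PLT (edgeR adjusted p = 0.0322). In C35P, XTH27 changed by -1.61 (edgeR adjusted p = 0.00852), XTH17 by -2.03 (edgeR adjusted p = 0.0255) and XTH30 by -1.95 (edgeR adjusted p = 0.0388). XTH17 had 24.7, 1.87 and 2.44 CPM at 0 h in C35P (Exp1 to Exp3), against 4.78, 0.743 and 1.5 CPM at 24 h. XTH30 had 16, 2.66 and 2.26 CPM at 0 h in C35P, against 1.08, 1.86 and 2.43 CPM at 24 h. For both genes the 2 times overlapped, Exp1 was far the highest library at 0 h, and no fit without it is given. In C28P, XTH27 changed by -2.55 (edgeR adjusted p = 1.19e-04) and XTH30 was 6.5-fold lower (edgeR adjusted p = 0.00656). At 0 h the log2 differences of the 14 genes had medians of -0.29 for C28PLT against C35P and -0.46 against C28P.

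Few genes that make xyloglucan were called, and most of those called were lower in each condition. Of 13 genes for its synthesis, all tested, 0 were higher and 4 lower at 24 h than at 0 h in C28PLT, 1 higher and 5 lower in C35P, and 1 higher and 3 lower in C28P. Over all genes, 14.6% were higher and 11.3% lower in C28PLT, 14.7% and 14% in C35P, and 13.9% and 15.3% in C28P. The higher call in each control was MUR3 (0.95 in C35P, edgeR adjusted p = 0.0372, and 0.96 in C28P, edgeR adjusted p = 0.0359). Nothing is read from 1 higher call set against 0. CSLC4, which makes the glucan backbone, had 10.5, 10.2 and 6.98 CPM at 24 h in C28PLT, against 26, 22.8 and 27.1 CPM at 0 h, a log2 change of -1.45 (edgeR adjusted p = 0.00224). It changed by -2.08 in C35P (edgeR adjusted p = 3.53e-05) and by -2.43 in C28P (edgeR adjusted p = 4.52e-06). XXT1, a xylosyltransferase that adds side chains, changed by -1.13 in C28PLT (edgeR adjusted p = 0.032), by -2.31 in C35P (edgeR adjusted p = 3.46e-05) and by -3.06 in C28P (edgeR adjusted p = 7.68e-07).

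XXT1 had 8.53, 10.4 and 8.8 CPM at 0 h in C28PLT, against 45.4, 32.8 and 8.81 CPM in C35P and 29.1, 52.8 and 24.6 CPM in C28P. The lowest C35P library, that of Exp3, lay inside the primed range. XXT3 changed by -1.36 in C28PLT (edgeR adjusted p = 0.0459), by -1.49 in C35P (edgeR adjusted p = 0.0263) and by -1.52 in C28P (edgeR adjusted p = 0.0208). CSLC8 changed by -1.50 in C28PLT (edgeR adjusted p = 7.03e-04) and by -1.10 in C35P (edgeR adjusted p = 0.00997), and CSLC12 by -1.70 in C35P (edgeR adjusted p = 0.0106). Of 3 genes that trim xyloglucan, 1 was higher in C28PLT, 1 in C35P and 1 in C28P, where 1 was lower. BGAL10, a beta-galactosidase, had 8.98, 18.6 and 7.86 CPM at 24 h in C28PLT, against 3.57, 3.87 and 1.79 CPM at 0 h. It rose by 1.94 on the log2 scale in C28PLT (edgeR adjusted p = 0.00338), by 2.75 in C35P (edgeR adjusted p = 8.59e-05) and by 2.36 in C28P (edgeR adjusted p = 5.29e-04).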

How the data were processed

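The deposited table holds raw counts per gene made by the authors. The submitters' processing notes name Trimmomatic, STAR 2.7.9a, DESeq2 and the build TAIR10. The library kit marks strand, per the labels' protocols, and neither the strand setting nor the annotation version nor the handling of multiply matching reads is stated there. Names, positions and sequences were taken from RefSeq TAIR10.1, in which all 36632 gene IDs were found.

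The quasi-likelihood test of edgeR 4.0.16 (R 4.3.3) was run on the counts of all 54 libraries: filterByExpr with a minimum count of 10 (20720 genes kept), TMM scaling, 1 coefficient per group, a robust quasi-likelihood fit with 36 residual degrees of freedom, and adjustment over all genes tested in each contrast. CPM values use the TMM-scaled library sizes. Intervals are 95% intervals of the fitted log2 change. On simulated counts for C28P at 24 h against 0 h, 89 of 100 genes changed 4-fold and 100 of 100 changed 16-fold were recovered, with 11 false calls among 20720 genes. The simulation gave every gene the same spread (dispersion 0.1197) and no experiment effect, and genes with low means were not among those changed. It therefore does not give the rate at which changes of the members are found.

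The members and lists were chosen with earlier results of these data known. Besides the members, the called genes with the largest change from 0 to 24 h are named, up to 4 per condition. They were taken from the other XTH genes and from the xyloglucan genes, and each is given in every condition that called it. Also named are MUR3, the synthesis gene called higher, and the 5 genes most like XTH22 and XTR6. Experiment numbers pair the libraries, per the labels' protocols. Libraries that share a number had a median correlation of their deviations of 0.159 over 459 pairs (0.374 within a condition), against -0.0713 for other pairs, and the fit with the replicate block is an alternative. DESeq2 1.42.0, RLE size factors, no filter, only the groups compared, a length and GC offset, and fits without a library or an experiment are the other alternatives.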

Additional observations from a re-analysis of the deposited data

Results flagged for a closer look

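For 4 genes every C28PLT experiment moved one way from 0 h and every experiment of a control the other way. These differences were not tested, since they rest on the 0 h levels by which the genes were picked. How many of all genes show such a pattern was not counted, so nothing is read from the 4. Some moves were small or at low levels: XTR6 changed by 0.04, 0.57 and 0.32 at 6 h in C28PLT (Exp1 to Exp3). XTH33 had 0.781, 0.797 and 1.11 CPM at 12 h in C28PLT, against 0.348, 0.357 and 0.47 CPM at 0 h. On the log2 scale, the mean change of XTH22 over the 3 experiments was 2.22 in C28PLT and -2.92 in C28P at 4 h, a difference of 5.15, and 1.09 and -3.77 at 6 h, a difference of 4.86. For XTR6 the mean change at 4 h was 0.95 in C28PLT and -2.49 in C28P, a difference of 3.44. At 6 h it was 0.31 in C28PLT and -3.26 in C28P, a difference of 3.57, and the same C28PLT value stood against -2.53 in C35P, a difference of 2.84. At 12 h XTH18 changed by 2.49 in C28PLT and by -1.90 in C28P, a difference of 4.40, and XTH33 by 1.06 in C28PLT and by -3.06 in C28P, a difference of 4.13.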

How the results depend on the processing

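Of 115 called changes of the members, all 115 kept their direction and call under DESeq2, RLE size factors, the replicate block, and that block plus an offset for length and GC. When each condition had its own experiment block 114 did, without the filter 105, and with only the groups compared 93. With an experiment left out 225 of 345 values did, and with a library left out 542 of 690. In C28PLT 1 member was called at 24 h against 0 h, and 3 were with the replicate block, also when the offset was added. There were 4 when each condition had its own experiment block, 3 by DESeq2 and 2 from the compared groups alone. The count in C35P (8) was 4 with only the groups compared. With a library or an experiment left out, the counts ran from 0 to 2 in C28PLT, from 2 to 9 in C35P and from 4 to 9 in C28P for 24 h against 0 h. For 24 h against 2 h they ran from 3 to 9 in C28PLT, from 7 to 9 in C35P and from 6 to 10 in C28P. Leaving out an experiment leaves 2 libraries in each group. Shares of all genes called are given for the main fit only. The member counts of the alternative fits therefore do not tell whether a gain or loss is particular to the members. XTH33 in C35P ran from -4.41 to 0.78 at 12 h and from -3.87 to 1.54 at 24 h against 0 h over these fits, and turned from lower to higher without Exp1: to 0.78 at 12 h and 0.30 at 24 h against 0 h without the experiment, and to 0.62 and 1.54 without its 0 h library alone. The causes were not tested beyond these omissions. Between conditions the counts at 2 to 24 h remained 0 in each setting run.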
